A study of Mus musculus with 5 samples.

Results

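The genes of the proteasome, 49 of the 21951 protein-coding genes of GENCODE M21 on the mouse build mm10, were examined for acetylation of histone H3 at lysine 27 (H3K27ac) in regulatory T (Treg) cells. They were chosen by name, as every protein-coding gene whose symbol starts with Psma, Psmb, Psmc, Psmd, Psme or Psmg. The H3K27ac signal of a gene was the sum of the counts of all peaks that overlapped it or lay within 3 kb of one of its transcription start sites (TSSs). Of the 49 genes, 48 had a peak and 46 had enough counts to be tested. One of the tested genes, Psmc3ip, meets the naming rule but encodes a meiotic recombination factor and no proteasome subunit, and its 1 peak held few counts.

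The proteasome is the protease that degrades proteins tagged with ubiquitin. Its 20S core is a barrel of outer rings of alpha subunits (Psma genes) and inner rings of beta subunits (Psmb genes), and 3 of the beta subunits, encoded by Psmb5, Psmb6 and Psmb7, cut the protein chain. The 19S regulatory cap, made of ATPases (Psmc genes) and other subunits (Psmd genes), recognises and unfolds the substrate. In lymphocytes and in cells exposed to interferon, Psmb8, Psmb9 and Psmb10 take the places of the constitutive catalytic subunits and form the immunoproteasome, which yields peptides suited to presentation by MHC class I, and the PA28 activator, encoded by Psme1 and Psme2, can replace the 19S cap.

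H3K27ac had been profiled by CUT&Tag, in which an antibody directs a transposase to the mark, with 2 libraries for each of 2 genotypes. Cre-YFP was expressed from Foxp3, the lineage-defining factor gene of Treg cells, in both genotypes, so deletion is set by Foxp3 expression. In the Ctrl mice 1 allele of Setd2 was floxed (f/+) and in the KO mice both were (f/f), so Ctrl cells are also a model with 1 copy of this gene deleted by Cre. Setd2 encodes the methyltransferase that places H3K36me3 over transcribed genes. Each library came from 60000 CD3+CD4+Foxp3-YFP+ cells sorted from the large intestine of 3 to 5 littermates at 2 weeks of age, with females and males pooled. An IgG control was listed and was not analysed here. The p-values of genes measure the spread between these 4 libraries, estimated in part from all tested genes together, and that spread may in part be technical. For single peaks the spread was estimated wholly from all 74550 tested peaks together. The p-value of a peak therefore does not measure the spread of that peak itself. Fewer cells of a type and less signal per cell cannot be told apart in these libraries.

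The libraries held 2395002 and 3630447 counts for Ctrl and 3007444 and 4712473 for KO. The 10 peaks of Setd2 itself held 51.6 and 84.2 counts scaled to library size (CPM) in Ctrl and 45.8 and 65.4 CPM in KO, which overlap, and H3K27ac over the gene does not check whether the floxed exons were deleted. All 7 Treg cell markers examined had peaks. Their summed signal was 2573 and 2875 CPM in Ctrl and 3046 and 3626 CPM in KO, so the sum was higher in each KO library. Ikzf2 held the largest part, with 1143 and 1193 CPM in Ctrl and 1259 and 1502 CPM in KO. The log2 fold change was positive at 6 of the 7 (49.7% of all tested genes) and negative at Cd4 (-0.12). Both KO libraries were above both Ctrl libraries at 4 (13.7% of all tested genes), and the genotypes overlapped at Foxp3, Tnfrsf18 and Cd4. Of the markers of other cells, Ms4a1, Itgam, Lyz2, Cd8a and Ncr1 had no peak and Krt8 reached at most 3.35 CPM. Summed over their lists, epithelial markers held 43.4 to 69.3 CPM, of which Cdh1 had 25.9 to 47.7, CD8 T and NK cell markers 19.9 to 32.4, of which Klrb1c had 13.7 to 23.8, and myeloid markers 107 to 138, of which the factor gene Spi1 had 84.1 to 119. The B cell gene Cd79a was at 152 to 258 CPM and the endothelial gene Pecam1 at 581 to 1078 CPM. What these cells or genes contribute to the values below was not tested.

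Active promoters carry H3K27ac on the nucleosomes beside their start sites, and the proteasome genes had it there. A peak covered a TSS of 44 of the 49 genes, against 9654 of the 21951 protein-coding genes. The sequences before the start of the constitutive catalytic genes, of Psmb8 and Psmb10, and of the activator gene Psme2 are given because the comparison between genotypes turns on these genes. Each is the 250 bases before the 5′ end of the gene in GENCODE M21, read 5′ to 3′ on the strand of the gene from the GRCm38 genome. Capitals mark matches on either strand. The motifs marked are the letters GGGCGG, bound by Sp1 and called a GC box below, the letters CCAAT of a CCAAT box, and TGACNNNGC, the core of an antioxidant response element.
Psmb8, chr17:34197471-34197720, plus strand: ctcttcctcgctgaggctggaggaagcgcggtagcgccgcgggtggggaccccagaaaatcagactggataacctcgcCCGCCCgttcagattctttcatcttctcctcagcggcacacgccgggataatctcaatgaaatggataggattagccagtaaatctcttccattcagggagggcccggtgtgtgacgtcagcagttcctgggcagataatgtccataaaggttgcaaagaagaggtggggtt
Psmb10, chr8:105938445-105938694, minus strand: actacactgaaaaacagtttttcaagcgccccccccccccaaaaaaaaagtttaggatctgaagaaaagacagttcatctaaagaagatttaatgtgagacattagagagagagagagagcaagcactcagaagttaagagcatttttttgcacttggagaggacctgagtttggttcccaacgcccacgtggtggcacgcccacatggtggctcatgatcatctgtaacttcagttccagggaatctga
Psmb5, chr14:54618023-54618272, minus strand: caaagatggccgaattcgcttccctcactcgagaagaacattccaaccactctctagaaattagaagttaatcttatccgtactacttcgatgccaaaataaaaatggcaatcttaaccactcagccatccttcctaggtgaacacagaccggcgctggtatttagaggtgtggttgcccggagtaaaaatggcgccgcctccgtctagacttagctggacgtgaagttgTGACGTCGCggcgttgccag
Psmb6, chr11:70525117-70525366, plus strand: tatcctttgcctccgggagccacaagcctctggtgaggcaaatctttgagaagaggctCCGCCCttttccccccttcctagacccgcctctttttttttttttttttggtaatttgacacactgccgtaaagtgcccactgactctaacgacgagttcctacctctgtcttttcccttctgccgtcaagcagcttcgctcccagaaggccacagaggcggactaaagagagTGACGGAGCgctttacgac
Psmb7, chr2:38644088-38644337, minus strand: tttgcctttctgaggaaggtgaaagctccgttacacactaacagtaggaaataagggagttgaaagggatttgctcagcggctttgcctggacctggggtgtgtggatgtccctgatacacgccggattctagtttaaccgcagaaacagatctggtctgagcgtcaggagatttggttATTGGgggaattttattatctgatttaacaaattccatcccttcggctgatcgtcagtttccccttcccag
Psme2, chr14:55591114-55591363, minus strand: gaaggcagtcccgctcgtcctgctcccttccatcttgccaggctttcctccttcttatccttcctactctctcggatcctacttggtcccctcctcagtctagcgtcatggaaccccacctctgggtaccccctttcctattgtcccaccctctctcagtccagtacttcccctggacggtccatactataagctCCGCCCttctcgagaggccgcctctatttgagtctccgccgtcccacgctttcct

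All 6 of these windows lay at least in part under an H3K27ac peak, as did 43 of the 49 windows of the proteasome genes. The window of Psmb9 holds an exon of Tap1, with which it shares a divergent promoter, and is not printed. A GC box was found in 25 of the 49 windows (51.0%) and in 39.0% of the windows of 21938 protein-coding genes. A CCAAT box was found in 19 (38.8%, against 36.0% of all), and the antioxidant response core, bound by the regulators of proteasome genes Nfe2l1 and Nfe2l2, in 5 (10.2%, against 10.04% of all), including Psmb5 and Psmb6. Also searched for, on both strands, were an interferon-stimulated response element (GAAA, any 2 bases, GAAA), in 4 windows (8.16%, against 3.05% of all), a gamma-activated site (TTC, any 3 bases, GAA), in 4 (8.16%, against 7.23%), and an NF-kB site (GGGA, any base, TTTCC), in 0 (against 0.388%). None of these 3 was in the windows of Psmb8, Psmb9 or Psmb10. The windows were set by the outer annotated end of a gene, which need not be a TSS used for its peaks. The Psmb10 window met its start-site peak (chr8:105936140-105938494) only at the end next to the gene. The Psmd9 window lay far from the TSS used. A motif missing from such a window may still occur near the TSS used, which was not searched separately. A match is a run of letters and not a bound site.

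Per kb of peak, the immunoproteasome genes and Psme2 were among the members with the most H3K27ac. Signal density, the CPM of a gene per kb of its peaks averaged over the 4 libraries, was highest at Psme2 (22.9 CPM per kb), Psmb8 (21.2) and Psma1 (20.7), an alpha ring gene. These placed Psme2 at percentile 98.4, Psmb8 at percentile 97.4 and Psma1 at percentile 97.0 of all tested genes. Next came Psme3, another activator gene, which shares no peak with a neighbour, at 18.5 CPM per kb and percentile 94.3. Psmb9, at 17.6 CPM per kb, stood at percentile 92.5 and Psmb10, at 16.7 CPM per kb, at percentile 90.3, while Psme1, the partner of Psme2, had 13.4 CPM per kb. Among the tested members the lowest densities were those of Psmb7 (7.91 CPM per kb), of the 19S gene Psmd8 (8.23) and of Psme4 (8.38), which encodes the PA200 activator.

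By role, the median density was 17.6 CPM per kb for the 3 immunoproteasome genes and 8.56 for their 3 constitutive counterparts. It was 12.4 for the alpha ring, 11.9 for the 19S ATPases, 11.2 for the other 19S subunits, 13.8 for the assembly chaperones and 15.9 for the 4 tested activators. Over all 46 tested members the median was 11.8 CPM per kb, and over the 13477 tested genes 10.2. The peaks over the start sites of the immunoproteasome and PA28 genes were also wide, at 4889 bp for Psmb9, 3834 bp for Psme2, 3224 bp for Psme1, 3187 bp for Psmb8 and 2355 bp for Psmb10, while the median of the widest TSS peak was 1473 bp over the proteasome genes and 1712 bp over all genes. Such width was not particular to these genes. The TSS peak of the alpha ring gene Psma6 was 3350 bp wide, more than those of Psme1 and Psmb8. Those of Psma7 (2854 bp), Psmd8 (2820 bp) and Psma2 (2815 bp) were wider than that of Psmb10. Each of the immunoproteasome and PA28 peaks named here is shared with a neighbouring gene.

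**Figure D1:**
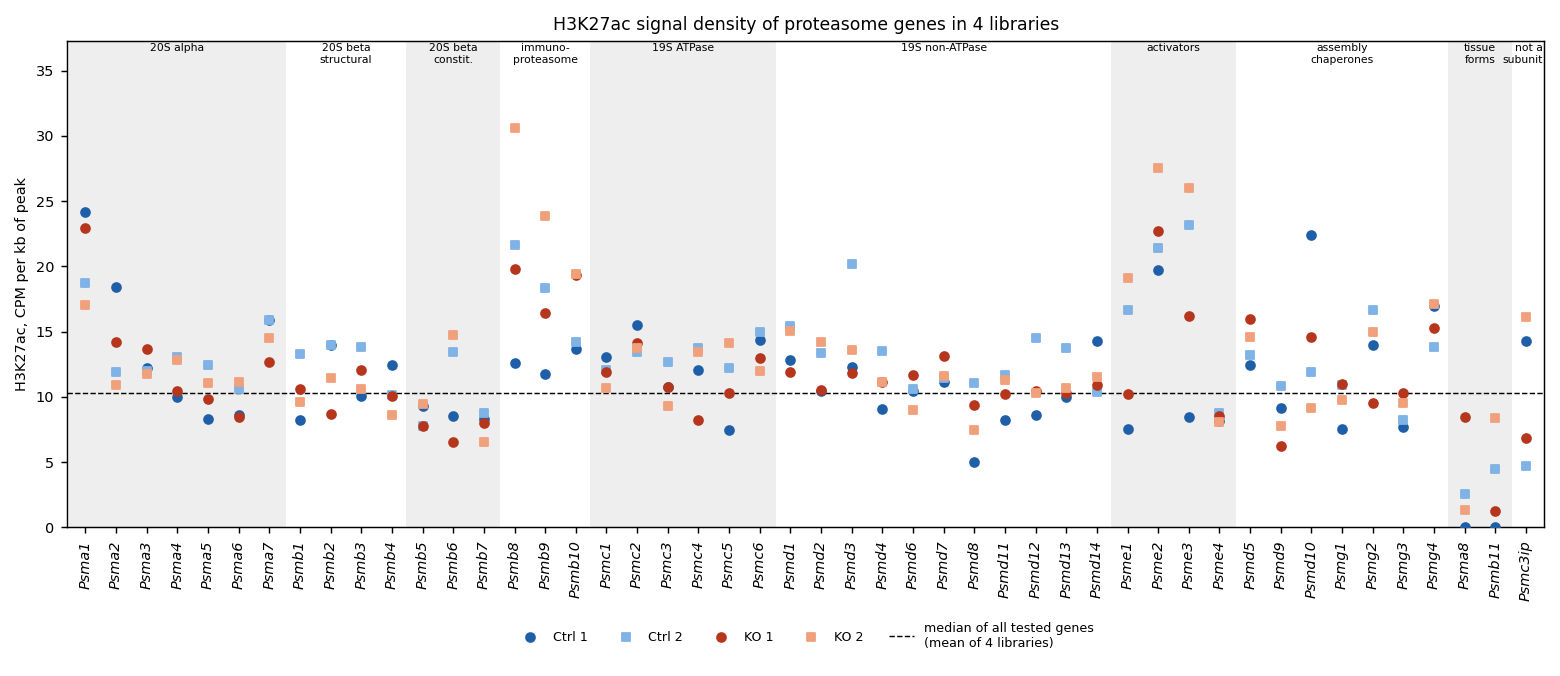
H3K27ac signal density (CPM per kb of peak, vertical axis) of the 48 proteasome genes with a peak, grouped by role, with 1 point for each of the 4 libraries and a dashed line at the median of all tested genes. The 3 immunoproteasome genes, Psme2, Psme3 and Psma1 have the highest means over the 4 libraries (16.7 CPM per kb or more), and for Psmb8, Psmb9, Psme1 and Psme3 the second library of each genotype is the higher one.

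Which proteasome genes carried more or less H3K27ac in KO than in Ctrl Treg cells was the question of the genotype comparison, and no single gene passed the test. With 2 libraries per genotype, the quasi-likelihood test of edgeR called 0 of 13477 genes higher (0% called) and 0 lower (0%) at an adjusted p under 0.05. DESeq2 also called 0 in each direction. An unadjusted p under 0.05 was found at 0.72% of all tested genes as higher in KO and at 2.03% as lower, 2.75% in all, and at 0 of the 46 tested proteasome genes. Log2 fold changes of the 46 ran from -0.53 to 0.55 with a median of -0.03, and the median over all tested genes was -0.0025. They were positive at 21 genes and negative at 25, a split that became 13 and 33 with total counts as library size, which moved the median of all genes to -0.08, and 26 and 20 with a loess offset on abundance. The libraries of the genotypes were apart at 12 of the 46 genes, against 30.2% of all tested genes, with KO the higher at 5 (13.7% of all) and the lower at 7 (16.6% of all). Every adjusted p of these 46 genes from edgeR was 0.9998 or more.

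The 3 immunoproteasome genes had the largest positive fold changes of the Psmb family. Psmb8 (ENSMUSG00000024338.15, chr17:34197721-34201454), which encodes the chymotrypsin-like subunit beta5i, had 141 and 241 CPM in Ctrl and 221 and 340 CPM in KO. The second library was the higher of each genotype, and the genotypes overlapped. The log2 fold change was 0.55 (SE 0.31, 95% interval -0.16 to 1.27, edgeR unadjusted p = 0.114). It was 0.17 without the second KO library, 0.21 without the first Ctrl library and 1.01 without the second Ctrl library, so its size rests on which libraries are kept.

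Psmb9 (ENSMUSG00000096727.3, chr17:34181987-34187764), which encodes beta1i, had 68.8 and 107 CPM in Ctrl and 95.8 and 139 CPM in KO. As at Psmb8, the second library of each genotype was the higher one and the genotypes overlapped. The log2 fold change was 0.41 (SE 0.30, edgeR unadjusted p = 0.208), between 0.08 and 0.78 when a library was left out, the lowest without the second KO library and the highest without the second Ctrl library.

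Psmb10 (ENSMUSG00000031897.9, chr8:105935735-105938444), which encodes beta2i, had 44.3 and 46.1 CPM in Ctrl and 62.6 and 63.0 CPM in KO. Here the libraries of a genotype lay close together and both KO libraries were above both Ctrl libraries. The log2 fold change was 0.47 (SE 0.25, 95% interval -0.10 to 1.04, edgeR unadjusted p = 0.0934), between 0.44 and 0.51 when a library was left out. Its 3 peaks also overlap or neighbour Lcat and the chymotrypsin-like protease gene next to it, so the signal cannot be given to Psmb10 alone.

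The chromosome 17 genes lie together in the MHC region, and their peaks are shared with the peptide transporter genes. The peak over the Psmb8 start site (chr17:34196192-34199378), which also meets Tap1, had 102 and 225 counts in the Ctrl libraries against 202 and 423 in the KO libraries. In CPM both KO libraries were above both Ctrl libraries, and the log2 fold change was 0.64 (SE 0.29, edgeR unadjusted p = 0.0283, adjusted p = 0.998). The neighbouring 6801 bp peak (chr17:34200092-34206892), which meets Psmb8 and Tap2, held 187, 518, 339 and 882 counts in Ctrl 1, Ctrl 2, KO 1 and KO 2, a log2 fold change of 0.50. The peak over the start sites of Psmb9 and Tap1 (chr17:34186100-34190988) held 140, 344, 242 and 533 counts in the same order, a log2 fold change of 0.39. In both of these the genotypes overlapped.

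**Figure D2:**
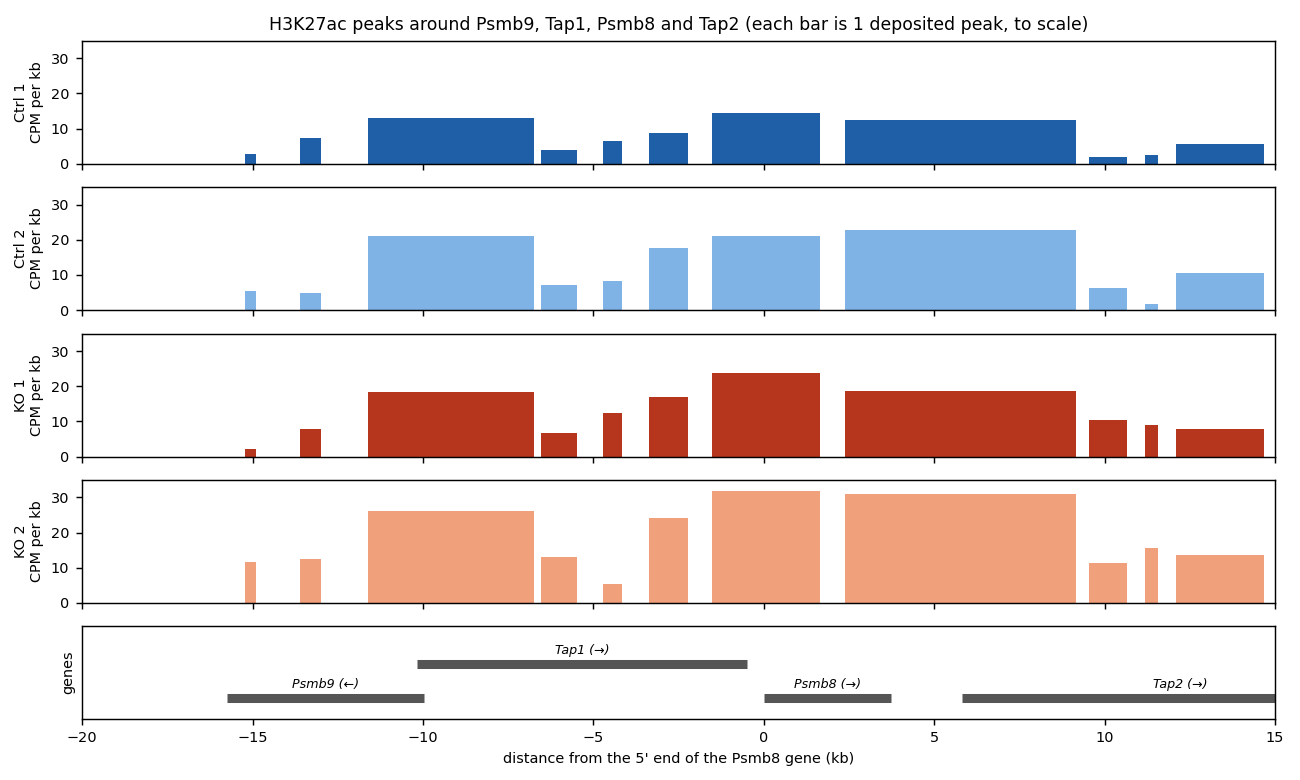
H3K27ac peaks around Psmb9, Tap1, Psmb8 and Tap2, drawn to scale: each bar is 1 deposited peak, its height the signal in CPM per kb in 1 library and its horizontal position the distance in kb from the 5′ end of Psmb8. The 3 widest peaks are highest in KO 2 and lowest in Ctrl 1, and the peak over the Psmb8 start site is higher in both KO libraries than in both Ctrl libraries.

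Set against the rest of the proteasome within each library, the immunoproteasome genes stood higher in KO. The mean log2 CPM of Psmb8, Psmb9 and Psmb10 minus the mean of the other 43 tested members was 1.13 in Ctrl 1 and 1.44 in Ctrl 2, and 1.68 in KO 1 and 1.96 in KO 2. Each KO library was above each Ctrl library, by 0.53 on average, and by 0.38 to 0.68 when a library was left out. Over peaks within 3 kb of a TSS alone the average was smaller, at 0.37. Psmb8 and Psmb10 have no peak beyond that distance, while many of the other members do. This difference is a description of chosen genes, and 2 of the 3 share a locus and a direction of library spread.

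Each immunoproteasome gene was also set against the subunit it replaces, as a ratio of CPM per kb of peak. Psmb8 to Psmb5 was 1.36 and 2.79 in Ctrl and 2.56 and 3.24 in KO, which overlap. Psmb9 to Psmb6 was 1.38 and 1.36 in Ctrl and 2.50 and 1.62 in KO, and Psmb10 to Psmb7 was 1.64 and 1.62 in Ctrl and 2.40 and 2.98 in KO. For both of these the KO libraries were the higher ones. Psmb6 has 1 peak with 15, 36, 14 and 49 counts in Ctrl 1, Ctrl 2, KO 1 and KO 2, so its ratios rest on few counts. Over the TSS peaks alone, Psmb8 to Psmb5 was 0.768 and 1.60 in Ctrl and 2.65 and 2.23 in KO. Psmb9 to Psmb6 was 1.52 and 1.56 in Ctrl and 2.81 and 1.77 in KO, while Psmb10 to Psmb7 was 1.57 and 1.87 in Ctrl and 2.65 and 1.79 in KO. Which pair overlapped thus depended on the peaks taken.

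**Figure D3:**
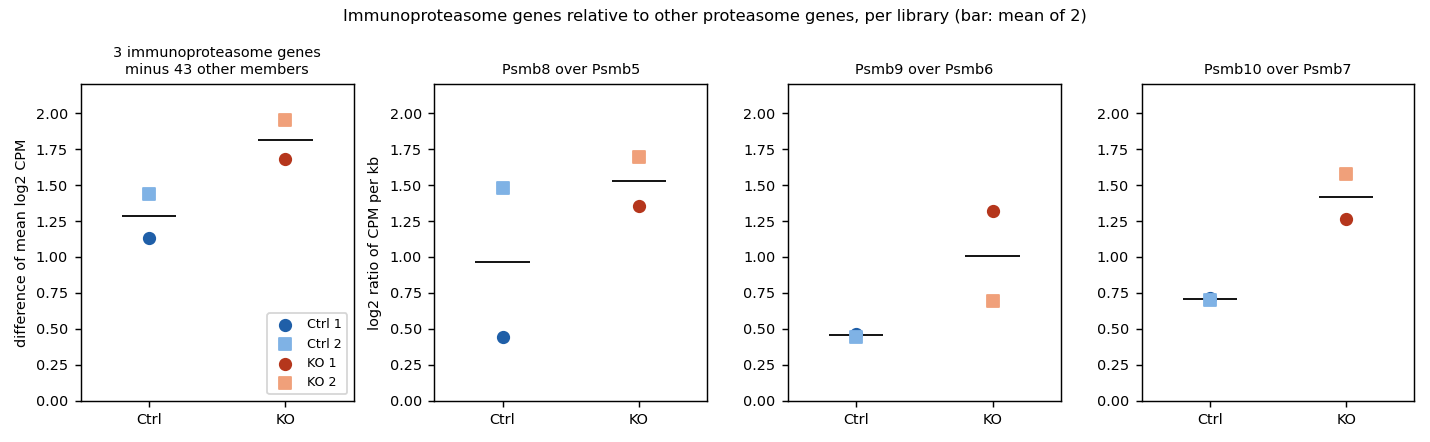
Immunoproteasome genes relative to other proteasome genes in each library, with a bar at the mean of the 2 libraries of a genotype: on the left the difference of mean log2 CPM, then the log2 ratio of CPM per kb of peak for each gene over the subunit it replaces. The KO libraries lie above the Ctrl libraries in the first panel (1.68 and 1.96 against 1.13 and 1.44) and for Psmb9 over Psmb6 and Psmb10 over Psmb7, and they overlap for Psmb8 over Psmb5.

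The constitutive catalytic genes had fold changes nearer 0. Psmb5 had 29.9 and 25.0 CPM in Ctrl and 25.0 and 30.4 CPM in KO, a log2 fold change of 0.02 (SE 0.31). Psmb6 had a single peak with 6.79 and 10.7 CPM in Ctrl and 5.22 and 11.7 CPM in KO, a log2 fold change of -0.04 (SE 0.66), so that its interval of -1.54 to 1.47 leaves room for a large change in either direction. Psmb7 had 76.0 and 80.1 CPM in Ctrl and 73.4 and 59.7 CPM in KO, below Ctrl in both libraries, with a log2 fold change of -0.23 (SE 0.25), between -0.40 and -0.12 when a library was left out and 0.31 (SE 0.46) over its promoter peak alone. At none of the 3 did the test pass.

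Genes with dense H3K27ac tended to lie higher in KO across the whole table. In the decile of tested genes with the highest density, which holds Psmb8, Psmb9, Psmb10 and Psme2, 68.9% of genes had a positive log2 fold change and the median was 0.13, against 49.7% of all tested genes. A loess offset on abundance follows the CPM of a gene and not its density, so it does not remove this trend. With it, the log2 fold change was 0.46 for Psmb8, 0.43 for Psmb9, 0.52 for Psmb10 and 0.23 for Psme2. By CPM, Psmb8 and Psme2 are in decile 10, Psmb9 in decile 9 and Psmb10 in decile 7. The median log2 fold change of all genes in these deciles was 0.14, 0.006 and -0.05. An offset on density was not tested.

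Of the 4 tested activators, 3 had a positive and 1 a negative log2 fold change, with a median of 0.28. Psme2 (ENSMUSG00000079197.10, chr14:55587441-55591113), which encodes PA28 beta, had 166 and 180 CPM in Ctrl and 191 and 231 CPM in KO. Both KO libraries were above both Ctrl libraries, and the log2 fold change was 0.29 (SE 0.22, 95% interval -0.22 to 0.80, edgeR unadjusted p = 0.227), with 0.11 without the second KO library. All of its peaks are shared with Emc9 or Rnf31.

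Its partner Psme1, for PA28 alpha, had 37.1 and 81.8 CPM in Ctrl and 50.3 and 93.9 CPM in KO, and Psme3, for PA28 gamma, had 15.4 and 42.0 CPM in Ctrl and 29.4 and 47.2 CPM in KO. At both, the libraries of a genotype differed more than the genotypes did. The log2 fold change of 0.27 (SE 0.42) at Psme1 became -0.29 without the second KO library and -0.18 without the first Ctrl library, and that of 0.40 (SE 0.46) at Psme3 became -0.13 without the first Ctrl library and -0.02 without the second KO library. Psme4 had 32.1 and 34.5 CPM in Ctrl and 33.5 and 31.9 CPM in KO, a log2 fold change of -0.03 (SE 0.28) that combined 0.32 (SE 0.38) over its promoter peak and -0.35 (SE 0.51) over its gene body peaks. Psme2b had no peak.

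In the 20S core outside the catalytic genes and in the 19S cap, no gene passed the test and group medians lay between -0.19 and 0.01. The alpha ring held 4 genes with a positive and 3 with a negative fold change, with a median log2 fold change of 0.01, and all 4 structural beta genes were negative, with a median of -0.19. Of the 6 ATPases 5 were negative, with a median of -0.19, and of the 11 other 19S genes 7 were negative, with a median of -0.03.

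Psmb2, for the structural beta4 subunit, had 74.2 and 74.1 CPM in Ctrl and 46.2 and 60.6 CPM in KO. Both KO libraries were below both Ctrl libraries, and the log2 fold change was -0.47 (SE 0.26, edgeR unadjusted p = 0.107). Psmd3, a 19S scaffold subunit, had 30.3 and 49.7 CPM in Ctrl and 29.1 and 33.5 CPM in KO, with overlap, and a log2 fold change of -0.36 (SE 0.33) that became 0.06 without the second Ctrl library. Psma1, the member with the third highest density, had 41.2 and 31.8 CPM in Ctrl and 39.1 and 29.0 CPM in KO, a log2 fold change of -0.10 (SE 0.31). Psmd8, in the 19S lid, had 17.6 and 39.3 CPM in Ctrl and 33.2 and 26.6 CPM in KO, a log2 fold change of 0.05 (SE 0.40).

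Assembly chaperones dock 19S or 20S intermediates during assembly and leave the finished particle. Psmd9 (ENSMUSG00000029440.15) had 65.6 and 77.4 CPM in Ctrl and 44.7 and 55.6 CPM in KO. The KO libraries were both below the Ctrl libraries, and its log2 fold change of -0.51 (SE 0.26, edgeR unadjusted p = 0.0853) had the smallest p of all members. Most of this signal came from 1 peak (chr5:123167457-123172441) at the far 5′ end of the annotated gene, 55749 bp from the TSS used here, which also meets Setd1b and Hpd and held 122, 188, 98 and 172 counts in Ctrl 1, Ctrl 2, KO 1 and KO 2. Within 3 kb of the Psmd9 TSS the log2 fold change was -0.12.

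Psmd10, for the chaperone gankyrin, had 25.8 and 13.7 CPM in Ctrl and 16.8 and 10.5 CPM in KO, with overlap and a log2 fold change of -0.53 (SE 0.48) that was -0.02 without the first Ctrl library and -0.93 without the second. Both of its peaks meet Atg4a. Psmg3 had 9.50 and 10.1 CPM in Ctrl and 12.7 and 11.7 CPM in KO, above Ctrl in both libraries, with a log2 fold change of 0.31 (SE 0.51), and both of its peaks are shared with Gm26938. The tissue forms were at the floor of the data, as the thymus form Psmb11 had 0, 9, 2 and 21 counts in Ctrl 1, Ctrl 2, KO 1 and KO 2, in 1 peak that also meets Psmb5, and the testis form Psma8 had 0, 3, 8 and 2 in the same order. Neither was tested. A count of 0 in the first Ctrl library allows up to 1.36 CPM (3 counts), for counting error only.

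**Figure D4:**
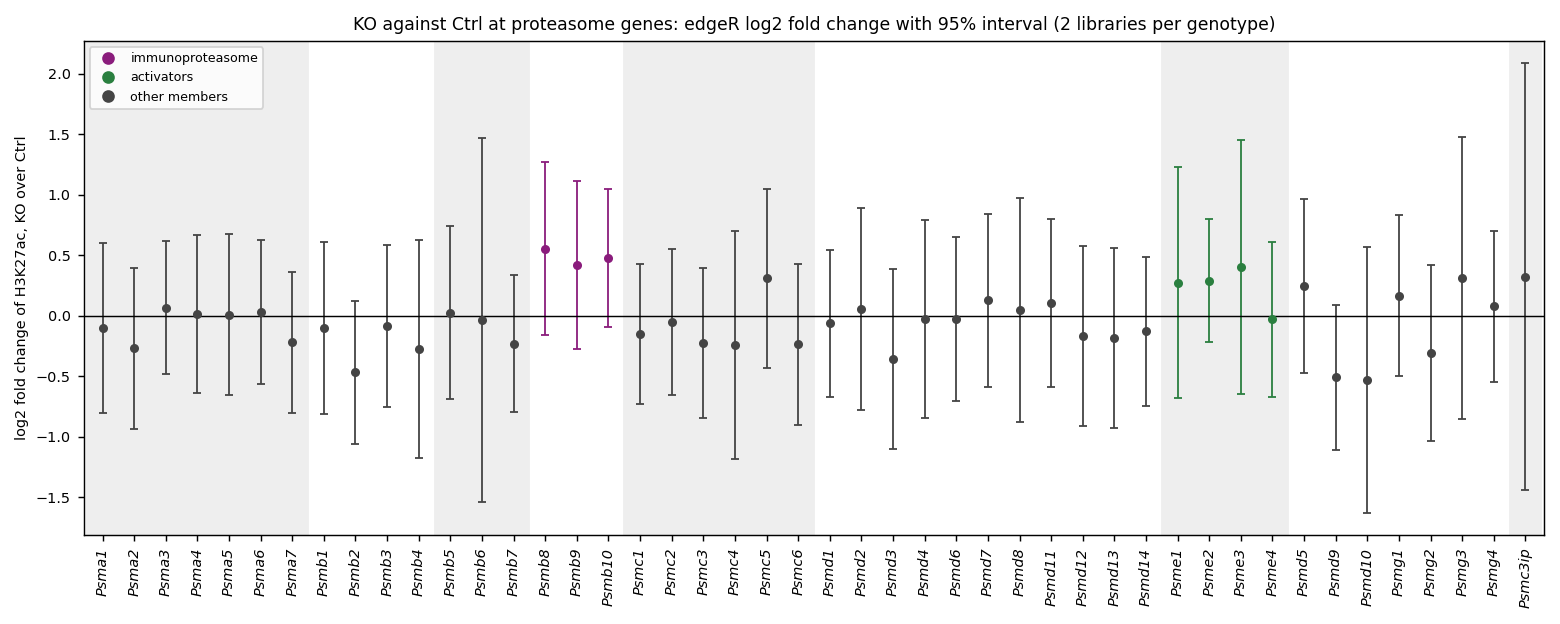
Log2 fold change of H3K27ac in KO against Ctrl (edgeR, 2 libraries per genotype) for the 46 tested proteasome genes, with 95% intervals, shaded by role. The immunoproteasome genes (0.41 to 0.55) and 3 of 4 activators lie above 0, but every interval crosses 0.

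Within the proteasome genes, the share of H3K27ac that lay in gene bodies was lower in both KO libraries. The 200 distinct peaks of the proteasome genes divide into 89 promoter peaks within 3 kb of a TSS and 111 gene body peaks farther from any TSS of their gene, a split made after the data had been seen. In Ctrl, gene body peaks held 22.7% of the counts of all 200 peaks in the first library (95% exact Clopper-Pearson interval 21.5% to 23.9%) and 24.3% in the second (23.3% to 25.2%). In KO they held 17.2% (16.2% to 18.2%) and 13.8% (13.1% to 14.4%), below both Ctrl libraries. The mean share was 23.5% ± 1.12 (SD, n = 2) in Ctrl and 15.5% ± 2.42 (SD, n = 2) in KO. Over all tested genes the share was 51.6% and 54.9% in Ctrl and 51.2% and 50.3% in KO, also lower in both KO libraries and with a smaller distance. A share within a library does not depend on how libraries are scaled to each other.

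In CPM, the gene body peaks of the proteasome genes summed to 466 and 590 in Ctrl and to 374 and 342 in KO, and the promoter peaks to 1591 and 1842 in Ctrl and to 1804 and 2145 in KO. Gene body signal was thus lower in both KO libraries, while promoter signal overlapped between the genotypes. The share was 21.3% and 23.2% in Ctrl and 16.2% and 12.9% in KO without the 6 gene body peaks that lie within 3 kb of a TSS of another gene. It was 20.6% and 22.3% in Ctrl and 15.8% and 12.3% in KO without Psmd9, and 31.2% and 35.7% in Ctrl and 26.4% and 22.0% in KO over the 148 peaks that meet no other gene. The gene body peaks were small, with a median width of 410 bp and a median of 34 counts over the 4 libraries together, against 1018 bp and 174 counts for the promoter peaks.

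The difference was spread over many of the genes. Gene body peaks were present at 34 of the 49 genes, and at 28 of these the mean CPM was lower in KO, where 59.7% of all genes with such peaks were lower. Both KO libraries were below both Ctrl libraries at 15 of the 34 (44.1%), where 26.6% of all genes with such peaks were, and above at 1, where 10.8% were. Around the start sites, 12 of 46 genes (26.1%) had a lower mean in KO, against 41.5% of all genes with promoter peaks. Each KO library was above each Ctrl library at 12 of the 46 (26.1%, against 17.4% of all) and below at 3 (6.52%, against 9.32% of all). Tested alone, these promoter sums had an edgeR unadjusted p under 0.05 at 1 of the 46 genes, Psmd5, and at 1.29% of all genes.

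In the fit of gene body peaks alone, 28 proteasome genes were tested, none of which had reached the count minimum through 1 genotype alone. The log2 fold change was negative at 26, among them all 5 ATPases, all 7 other 19S genes, all 3 structural beta genes, all 4 assembly chaperones and 5 of 6 alpha ring genes. Psma3, at 0.05, and Psmb9, at 0.76 (SE 0.80), were the exceptions. The median was -0.75, against -0.16 over the 9247 genes tested in this way, and at 27 of the 28 genes the gene body value was below the promoter value, as it was at 71.7% of all genes with both. Of the 28, 2 had an edgeR unadjusted p under 0.05, where 8.77% of all genes did, and none passed the adjusted threshold, the smallest adjusted p being 0.472.

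Low gene body signal went with lower values in KO across the table. By decile of gene body CPM, the median log2 fold change of all genes was between -0.34 and -0.15 in the first 8 deciles, which hold all 28 proteasome genes, and 0.11 in the highest. In each of these 8 deciles the median of the proteasome genes, from -1.55 to -0.33, was below that of all genes in the same decile. Each of these medians rests on only 2 to 5 proteasome genes.

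Named by their small p in the gene body fit after values were seen, Psmb2 and Psmd11 show the pattern. The 7 intronic peaks of Psmb2 summed to 31.7 and 36.0 CPM in Ctrl and 13.8 and 18.2 CPM in KO, with the KO libraries both lower (log2 fold change -1.07, SE 0.45, edgeR unadjusted p = 0.0204), while its promoter held 42.5 and 38.1 CPM in Ctrl and 32.4 and 42.4 CPM in KO, with overlap (-0.10, SE 0.29). At Psmd11, which encodes a subunit of the 19S lid, the 4 gene body peaks held 10.9 and 15.8 CPM in Ctrl and 3.73 and 5.51 CPM in KO (-1.51, SE 0.71, edgeR unadjusted p = 0.0369). Its promoter went the other way, with 15.8 and 22.3 CPM in Ctrl and 29.4 and 31.1 CPM in KO (0.65, SE 0.33, edgeR unadjusted p = 0.0715). In both places the 2 genotypes were apart.

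The chaperone gene Psmd5 likewise combined a higher promoter with a lower gene body. It too was singled out after its values were seen. The peak over its start site (chr2:34870658-34871734), which also meets Cutal, had 30 and 45 counts in the Ctrl libraries against 68 and 94 in the KO libraries, a log2 fold change of 0.82 (SE 0.41, edgeR unadjusted p = 0.0451). A peak over an exon 16580 bp away (chr2:34854019-34854382) had 12 and 19 counts in the Ctrl libraries against 4 and 1 in the KO libraries. It reached the count minimum through the Ctrl libraries alone, so it was tested only because it was high there, and its log2 fold change of -2.75 (SE 1.14, edgeR unadjusted p = 0.0159) is given as a description only. Together with the peak over the Psmb8 start site, these were the 3 of 129 tested peaks of proteasome genes with an unadjusted p under 0.05, 2 higher in KO (1.45% of all tested peaks) and 1 lower (2.79% of all), where 4.24% of all had one in either direction. None passed the adjusted threshold, which 1 of 74550 peaks did as higher in KO (0.00134%) and 0 as lower. The log2 fold change was negative at 70 of the 129 (50.8% of all) and positive at 59 (49.2% of all), and the genotypes were apart at 44 (33.3% of all), with KO the higher at 23 (16.9% of all) and the lower at 21 (16.4% of all).

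**Figure D5:**
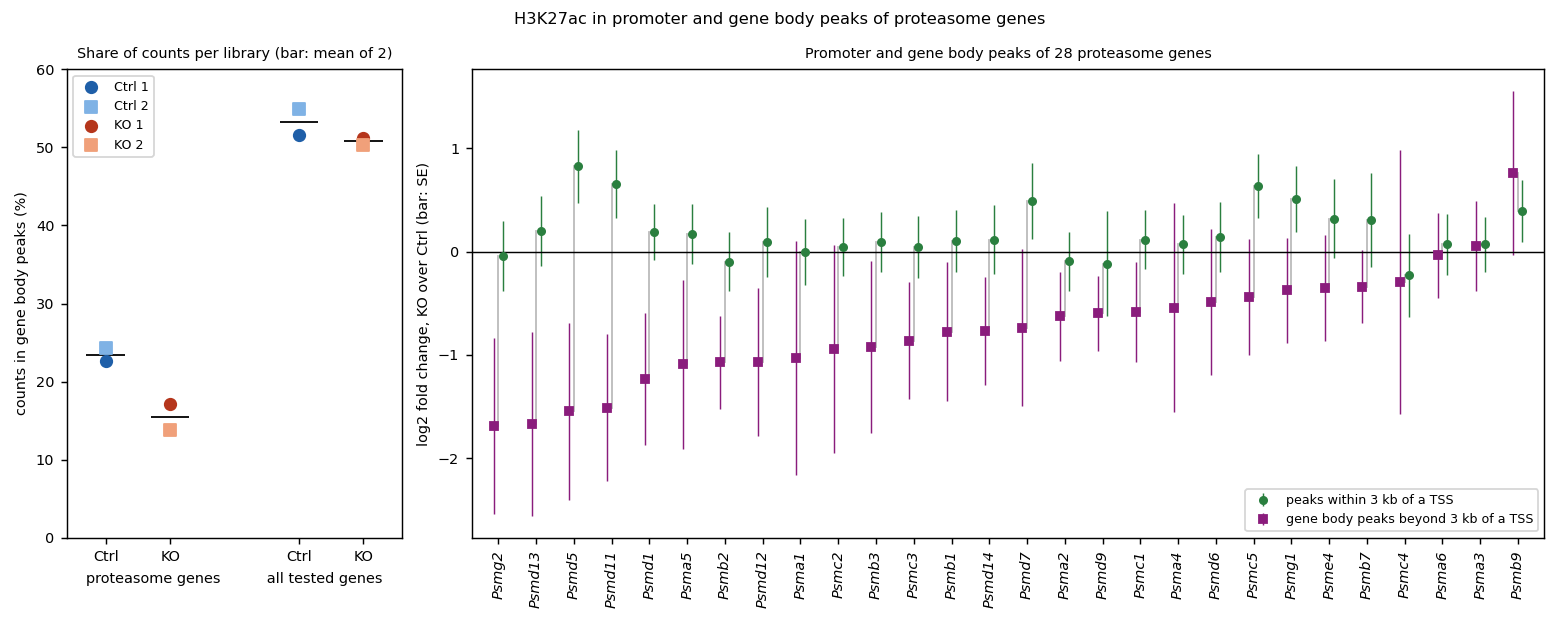
On the left, the percent of counts in gene body peaks in each library, for the proteasome genes and for all tested genes, with a bar at the mean of 2 libraries; on the right, the log2 fold change of KO against Ctrl with its SE for promoter peaks (circles) and gene body peaks (squares) of the 28 genes tested in both. The proteasome share is 22.7% and 24.3% in Ctrl and 17.2% and 13.8% in KO, and the square lies below the circle for every gene but Psmb9.

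Genes that act with the proteasome were followed by lists taken from textbook roles. Of 17 tested partners, such as ubiquitin receptors, deubiquitinases and assembly factors, 0 passed the test in either direction and 14 had a negative log2 fold change, with a median of -0.26. Both KO libraries were below both Ctrl libraries at 9 of the 17, where 16.6% of all tested genes were. The smallest p was that of Akirin2, which brings proteasomes into the nucleus, with 51.6 and 43.2 CPM in Ctrl and 35.4 and 32.1 CPM in KO (log2 fold change -0.49, edgeR unadjusted p = 0.112). Pomp, the maturation factor of the 20S core, had 118 and 119 CPM in Ctrl and 111 and 106 CPM in KO (-0.13).

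Of 14 regulators of proteasome gene transcription, 0 passed, 9 were positive and 5 negative, with a median of 0.17. Irf1, an interferon-induced activator of immunoproteasome genes, had the smallest p, with 108 and 145 CPM in Ctrl and 148 and 225 CPM in KO, above Ctrl in both libraries (0.56, edgeR unadjusted p = 0.0788). In the MHC class I peptide pathway 0 of 11 genes passed, 9 were positive and 2 negative, with a median of 0.26. Tap1, a peptide transporter subunit, had the smallest p, with 132 and 205 CPM in Ctrl and 203 and 282 CPM in KO, with overlap (0.53, edgeR unadjusted p = 0.0970), and Tap2 had 108 and 197 CPM in Ctrl and 165 and 267 CPM in KO (0.50). Tap1 and Tap2 share peaks with Psmb8 and Psmb9 and are no separate evidence on them.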

How the data were processed

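H3K27ac CUT&Tag of sorted large intestinal Treg cells was analysed from 1 deposited table of counts per peak. Per the labels and methods, the authors aligned trimmed reads with Bowtie2 to mm10, kept unique reads without duplicates, used MACS2 with IgG as background to call peaks, and counted reads over the set merged by bedtools (versions not given in the sources used here). The counts were used as deposited. Library totals ran from 2395002 to 4712473. Clopper-Pearson intervals of shares cover counting error only, while those of gene fold changes include the spread between libraries, estimated in part from all tested genes together.

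Peak starts were shifted to 1-based coordinates. Peaks were assigned to GENCODE M21 basic genes that they overlapped or whose TSS lay within 3 kb, so a peak shared by neighbours counts for each. CPM used TMM factors from the whole peak table. Genes and peaks that reached 10 counts in 2 or more libraries (13477 genes, 74550 peaks) were compared with edgeR 4.0.16 (limma 3.58.1, R 4.3.3), by a quasi-likelihood test of KO against Ctrl with Benjamini-Hochberg adjustment over all of them. Scripts were tested on simulated data. With 2 libraries against 2, an exact two-sided permutation test cannot go below p = 0.333. Replicates differed by more than sampling noise (chi-square per degree of freedom 4.07 for Ctrl and 4.20 for KO) and were kept apart. Tables were joined with Python 3.11.15 and pandas 2.3.3.

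The members and gene lists were chosen with earlier results of these data known. Named were the immunoproteasome genes and their counterparts, the tissue forms, the activators, members not tested or sharing all peaks, the 4 with the smallest p in each direction, and the 3 with the highest and the 3 with the lowest density, and of the lists Tap1, Tap2, Pomp and the gene with the smallest p. Alternatives were DESeq2 1.42.0, other normalizations, count minimums and peak assignments, a replicate block and leaving out each library. A fit of gene body peaks was added after the data had been seen. Promoter sequences come from the RefSeq genome sequence of GRCm38.p6.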

Additional observations from a re-analysis of the deposited data

How the results depend on the processing

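The count of genes called stayed at 0 in each direction in all alternatives but the replicate block. The replicate block called 429 genes higher and 454 lower (6.55% of all), 1 proteasome gene higher (Psmb8, log2 fold change 0.56, edgeR adjusted p = 0.000397) and 0 lower, and 152 peaks higher and 59 lower. The deviations of Ctrl 1 and KO 1 correlated at r = 0.257 over 74550 peaks, and chi-square per degree of freedom was 2.95 and 3.78 between libraries of the same number against 4.56 and 5.03 between the others of different genotype, a hint from the data, but no label ties libraries of the same number and there are only 2 pairs, so they were not treated as paired. The 1 peak called higher became 0 with DESeq2 and with a count minimum of 50, and 0 to 1 without 1 library. With the immunoproteasome genes against the other members, the difference of 0.53 stayed between 0.37, with promoter peaks alone, and 0.69, with each peak assigned to 1 gene. In the last setting Psmb9 had no value, so the 0.69 rests on Psmb8 and Psmb10 only.

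Signs turned with total counts as library size at Psmb5 (-0.059) and Psmd8 (-0.029), with a promoter limit of 1 kb at Psmb5 (-0.25), with a loess offset at Psmb6 (0.017) and Psme4 (0.029), and with promoter peaks alone at Psmb7 (0.31) and Psme4 (0.32). They also turned without 1 library, where values ran from -0.34 to 0.083 for Psma1, -0.16 to 0.14 for Psmb5, -0.79 to 0.39 for Psmb6, -0.67 to 0.055 for Psmd3, -0.41 to 0.76 for Psmd8, -0.29 to 0.98 for Psme1, -0.13 to 1.33 for Psme3 and -0.087 to 0.028 for Psme4. The cause was not tested. Gene body peaks held a median of 34 counts over the 4 libraries, which limits what single genes can show.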
